A study of Drosophila melanogaster with 3 samples.

Results

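The 10 genes described here carry or restrain Notch signalling: N, Dl, Ser, Su(H), mam, H, kuz, neur, mib1 and numb. They were taken by name from the Ensembl annotation of the dm6 fly genome, in which Dl is listed as Delta, and make up 10 of the 13968 protein-coding genes on the chromosome arms. Binding of CG7839 was measured by ChIP-seq on whole Drosophila melanogaster embryos of 0 to 24 h, males and females together, from a transgenic line in which the protein bears GFP at its C-terminus. Sonicated chromatin was pulled down with an antibody to GFP in 3 biological replicates, the only group analysed here, so every embryo carried the fusion and no untagged line or other stage stood against it. CG7839 is the fly Noc1, named after a yeast nucleolar protein needed to build large ribosomal subunits. Whole embryos mix all cell types, and peak lists hold no expression values, so the cells behind a summit cannot be named.

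The 3 replicate lists and the list from pooled reads hold 30000 summits each, a summit being the base of highest signal in a peak. The IDR list, named for the irreproducible discovery rate between replicates, holds 8188 summits, which are the 8188 pooled summits of largest signal value. Signal values are the authors' own, with no stated scale, and serve here for ranks within one list, rank 1 being the strongest. To compare replicates at the same number of peaks, the strongest 8188 of each were used. These lists share 1 control and no second group exists, so no test between conditions was possible and all values below are descriptions.

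Notch is a membrane receptor that cells use to tell their neighbours which fate to take, in the fly embryo above all in the choice between neural and epidermal fate. Its ligands Delta and Serrate sit on the neighbouring cell and must be ubiquitinated and taken up there before they can activate it. The activated receptor is cut, and its intracellular part enters the nucleus, where it joins the DNA-binding protein Su(H) and the co-activator Mastermind and turns on target genes such as those of the E(spl) complex.

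Sequences around 6 summits are shown for what the results below turn on: the strongest IDR summit of N, Dl, neur and numb, and the summits at the starts of N and kuz. Each is RefSeq dm6 sequence written 5′ to 3′ along its gene, cut back to leave out exons. Capitals mark matches to the motifs searched, here GAGAG at Dl and GTGAGAA at kuz, and a stretch without capitals held none. The N intron stretch is chrX:3162439-3162639 on the plus strand, with the summit at its middle base. The N start stretch is chrX:3134533-3134653 on the plus strand, with the summit at base 21. The Dl stretch is chr3R:19326218-19326351 on the minus strand and ends on the base before the transcript start, with the summit 34 bp upstream of that start. The kuz stretch is chr2L:13550051-13550138 on the plus strand and also ends on the base before the transcript start, with the summit 12 bp beyond that start. The neur stretch is chr3R:9033863-9034063 on the minus strand and the numb stretch chr2L:9449484-9449684 on the plus strand, both with the summit at the middle base.
N intron: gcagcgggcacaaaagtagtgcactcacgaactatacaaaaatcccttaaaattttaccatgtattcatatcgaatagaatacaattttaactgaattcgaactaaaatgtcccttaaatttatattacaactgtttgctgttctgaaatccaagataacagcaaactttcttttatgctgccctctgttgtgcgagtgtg
N start: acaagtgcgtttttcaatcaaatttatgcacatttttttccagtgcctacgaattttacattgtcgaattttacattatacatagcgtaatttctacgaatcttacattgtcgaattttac
Dl start: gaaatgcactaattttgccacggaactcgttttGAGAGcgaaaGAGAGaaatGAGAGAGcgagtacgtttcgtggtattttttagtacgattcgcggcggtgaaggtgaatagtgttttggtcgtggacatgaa
kuz start: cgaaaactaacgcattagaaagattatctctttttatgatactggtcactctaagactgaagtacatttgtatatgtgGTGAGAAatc
neur second start: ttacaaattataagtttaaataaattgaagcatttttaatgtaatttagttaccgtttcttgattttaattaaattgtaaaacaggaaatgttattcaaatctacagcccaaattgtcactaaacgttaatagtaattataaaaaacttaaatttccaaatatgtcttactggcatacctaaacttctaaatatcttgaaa
numb second start: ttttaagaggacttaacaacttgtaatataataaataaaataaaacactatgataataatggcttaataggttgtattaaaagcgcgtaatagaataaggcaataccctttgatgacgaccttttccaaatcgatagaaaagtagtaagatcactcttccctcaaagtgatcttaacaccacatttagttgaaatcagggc

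Summits lay at 6 of the 10 genes' starts, that is, within 500 bp of an annotated transcript start, in the IDR list, where 22.8% of all protein-coding genes had one. These 6 were N, Dl, mam, kuz, neur and numb. Between the gene ends, 7 of the 10 held an IDR summit, the same 6 and Ser, beside 15.8% of protein-coding genes. Gene length bears on that count: all 7 are at least 10 kb long, and of protein-coding genes that long 59% held a summit between their ends and 39.4% one at a start. Intronic summits occurred in the same 7 genes, against a background of 12.7% of all protein-coding genes and 57.5% of those of at least 10 kb. With the 5 kb on either side added, 8 of the 10 had a summit, mib1 being the additional gene, where 55% of all protein-coding genes did. Of other protein-coding genes of at least 10 kb, 77.6% did. The count of members with flanks was 6 without replicate 1, which left out Ser and mib1, and 7 without replicate 2 or 3. Those lists are shorter, and the share of all protein-coding genes was not counted for them. Su(H) and H had none in any of the 5 lists.

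Counts in the other lists were similar, most of them beside larger backgrounds. Among the strongest 8188 summits of replicates 1, 2 and 3, 5, 7 and 7 of the 10 genes had one at a start, where 22.8%, 25.1% and 26.4% of protein-coding genes had one. In the replicates' full lists 6, 8 and 7 did, where 37.8%, 43.5% and 46.4% of protein-coding genes did. In the pooled list 7 did (37.6% of protein-coding genes), mib1 being the gene added to the 6 of the IDR list. Between their ends, 8 held a pooled summit (26.5%), 8 an intronic one (19%), and with 5 kb of flank 8 did (68.7%). Of other protein-coding genes of at least 10 kb, 63.8% had a pooled summit at a start and 74.4% one between their ends. For intronic summits that share was 72.4%, and with flanks 87.1%. At a start it was 37.8%, 41.5% and 40.1% in the replicates' strongest 8188 and 64.0%, 67.5% and 68.7% in their full lists. Of the 7 members of that length, 6 had a pooled start summit and all 7 one between their ends.

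In all, 26 IDR summits lay between the ends of the 10 genes, 24 in introns and 2 in exons, and 35 lay in the genes or within 5 kb of them. Over their 303.37 kb of sequence this came to 0.0857 summits per kb, and over the other protein-coding genes to 0.0531 per kb. The 3 replicates' strongest summits gave 0.0857 ± 0.00873 per kb in the 10 genes and 0.0528 ± 0.00122 per kb in the other genes (SD, n = 3 replicates). The excess in the IDR list lay in mam, which held 15 of the 26. The remaining 9 genes held 11 IDR summits in 234.216 kb, 0.047 per kb, which is below the other genes' value. In the replicates these 9 genes had 0.0512 ± 0.00425 per kb (SD, n = 3), within 1 SD of the other genes' 0.0528. Per kb of intron, the 9 genes had 0.0545 IDR summits and the other protein-coding genes 0.0713.

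**Figure D1:**
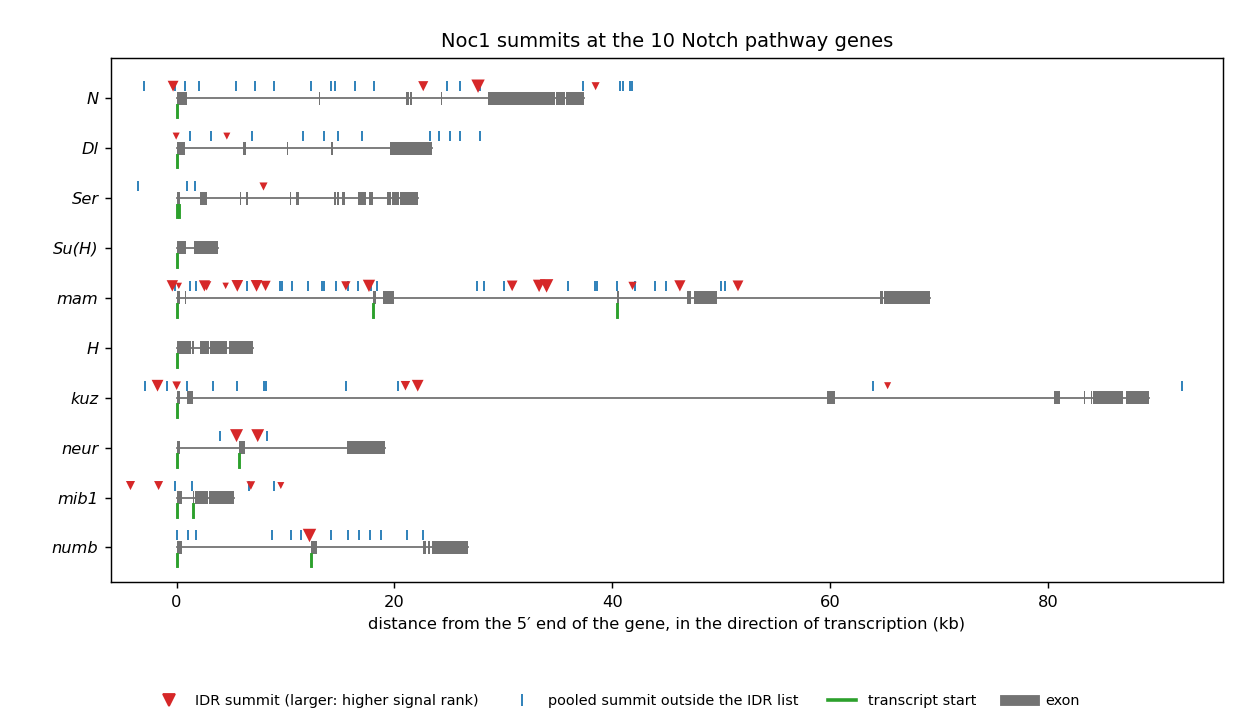
Noc1 summits along each of the 10 Notch pathway genes, drawn from the 5′ end in the direction of transcription, with distance in kb on the x axis. Red triangles are IDR summits, blue bars pooled summits outside the IDR list, grey boxes exons and green bars transcript starts. The 15 IDR summits of mam spread over 51.315 kb, that of numb and 1 of the 2 of neur lie at internal starts, and Su(H) and H have no summit.

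N (FBgn0004647), the receptor gene, runs from 3134870 to 3172221 on the plus strand of X and had 2 IDR summits between its ends, both in introns. The stronger one, at 3162539 and 27.669 kb into the gene, ranked 361 in the IDR list and 441, 299 and 356 in replicates 1, 2 and 3. All 3 replicates thus placed it near the top of their lists. The other, at 3157510, ranked 4681 in the IDR list and 4688, 4482 and 5371 in the replicates, so both were among the strongest 8188 of every replicate. A summit at the N start lay 317 bp upstream of it, at 3134553, with rank 3786 in the IDR list and 5032, 3456 and 3172 in the replicates. The gap before N is short. The gene upstream, kirre, a cell-adhesion gene of the muscle precursors, lies on the same strand and ends 337 bp before N begins, and the summit sits 21 bp past that end. One further IDR summit, at 3173328, lay downstream of N but 188 bp from the start of CG18508, the gene that faces it, and ranked 6766. The start of CG18508 was also the nearest to the intronic summits at 3162539 and 3157510, at 10601 and 15630 bp.

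In the full replicate lists N held 12, 13 and 11 summits between its ends, a mean of 12.0 ± 1.0 (SD, n = 3), and in the pooled list 16. Of those 16, 2 were IDR summits, a share of 12.5%, where 27.3% of all pooled summits are in the IDR list. N therefore had many summits of low rank, with a median pooled rank of 22761 for the 14 outside the IDR list, and few strong ones.

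Each ligand gene had 1 IDR summit between its ends, and their 3 IDR summits in all ranked 6719, 7572 and 7603. Dl (FBgn0000463), which encodes Delta, lies at 19302731 to 19326217 on the minus strand of 3R. Its start had an IDR summit 34 bp upstream of it at rank 7572, the stretch shown above with 4 GAGAG matches, 2 of them overlapping, between bases 34 and 59. That summit ranked 5712 and 6928 in replicates 2 and 3, and replicate 1 had no summit within 100 bp of it in its whole list. The intronic one, at 19321601 and 4.616 kb from the start, ranked 7603 in the IDR list and 7875, 9224 and 6681 in the replicates. Each of the 2 thus fell outside the strongest 8188 of 1 replicate. Without replicate 2 or 3 the start summit was not kept, and without replicate 1 or 3 the intronic one was not. In the pooled list Dl held 14 summits with flanks and 9 between its ends, these 9 making 0.3832 per kb of gene, against a median of 0.1833 for other protein-coding genes of at least 10 kb. Replicates differed in their full lists, with 5, 9 and 2 summits between the ends of Dl.

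Ser (FBgn0004197), which encodes Serrate, lies at 27172090 to 27194267 on the minus strand of 3R and has annotated starts 0.272 kb apart. It had 1 IDR summit, at 27186360 in an intron, 7635 bp from the nearer start. This ranked 6719 in the IDR list and 6639, 7274 and 11228 in the replicates, so replicate 3 left it outside its strongest 8188, and it was kept only where that replicate was left out. Neither start had an IDR or pooled summit. Only the full list of replicate 2 had one there, at rank 24566.

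The mam gene (FBgn0002643), for the co-activator Mastermind, had the most summits of the 10 and the most per kb between the gene ends in the IDR list. With flanks counted, mib1, a short gene with 4 flank summits, had more per kb of gene, 0.7603 against 0.2314 for mam. Per kb of gene and flanks together mib1 had 0.2621 and mam 0.2021. The mam gene covers 69.154 kb, from 13991203 to 14060356 on the plus strand of 2R, with 3 distinct starts. It held 15 IDR summits between its ends, 14 of them in introns. Replicates 1, 2 and 3 had 12, 16 and 14 among their strongest 8188, a mean of 14 ± 2.0 (SD, n = 3), and 36, 41 and 42 in their full lists. At 0.2169 IDR summits per kb it lay at the 93.2nd percentile of protein-coding genes of at least 10 kb, of which 134 had a higher density. A density as high as that of mam occurred in 6.11% of all protein-coding genes and 6.8% of those of at least 10 kb. Genes with at least 15 IDR summits between their ends made up 0.122% of protein-coding genes, 17 in all, mam included. So mam was rarer by its number of summits than by their density, but that number takes no account of its length of 69.154 kb.

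The mam summits were spread over introns. The gaps between neighbours had a median of 2235 bp and ran up to 13141 bp, while the median gap between all neighbouring IDR summits was 5350 bp. A stretch of 10 kb within mam or beside it held 8 of them, and 25 of all IDR summits (0.305%) had as many or more in the 10 kb that began with them, the median being 2. The strongest, at 14025161 and 33.958 kb into the gene, ranked 250 in the IDR list and 215, 260 and 275 in the replicates. Next to it, at 14024475, a summit ranked 1735 in the IDR list and 1680, 1683 and 1666 in the replicates. These 2 sat in the same long intron as CG18371, a small gene inside mam whose start was 3459 bp from the nearer one and closer than any start of mam. Upstream in the gene, the summits at 14006742 and 13999372 were nearest to mir-4978, 736 and 6634 bp away, a microRNA gene also inside mam.

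Among the 3 starts of mam, the first 2 had IDR summits. The second start, 17.996 kb into the gene, had one 337 bp upstream at rank 1885, and ranks 2185, 1530 and 2097 in the replicates. The first start had one 385 bp upstream at rank 3130, but this lay only 111 bp from the start of RN-tre, which encodes a GTPase-activating protein and runs the other way. It also had one 209 bp downstream, in the first exon, at rank 8123, and ranks 11931, 4945 and 10742 in the replicates placed that one inside the strongest 8188 of replicate 2 alone. The last start, 40.46 kb into the gene, had a pooled summit 71 bp upstream at rank 8926, just outside the IDR list. Of the 16 IDR summits in mam or within 5 kb, 12 (75.0%) were matched within 100 bp among the strongest 8188 of all 3 replicates. At the other extreme, the summit at 14033048 ranked 6587 in the IDR list and 4796 in replicate 1, and had no summit near it in replicates 2 and 3.

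Su(H) (FBgn0004837), which encodes the DNA-binding partner of the cut receptor, had no summit in the gene or within 5 kb in the IDR, pooled or any replicate list. It is 3.847 kb long, at 15039488 to 15043334 on 2L. The nearest IDR summit lay 13536 bp away, and the nearest in replicates 1, 2 and 3 lay 13528, 13544 and 11662 bp away. H (FBgn0001169), for Hairless, the protein that holds Su(H) in a repressing complex, was alike in this. It spans 20621938 to 20628915 on 3R, and its nearest summit lay 27176 bp away in the IDR list and 5844, 17976 and 5271 bp away in the replicates, just beyond the 5 kb limit in replicates 1 and 3. Of all protein-coding genes, 13.7% were without a summit in the gene and its flanks in all 5 lists, and of those shorter than 10 kb, 15.3%.

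The gene kuz (FBgn0259984) encodes Kuzbanian, the metalloprotease that makes the first cut after ligand has bound. It is the longest of the 10, 89.273 kb from 13550139 to 13639411 on 2L, and had 4 IDR summits between its ends, or 0.0448 per kb. Replicates had 3, 5 and 4 among their strongest 8188 (mean 4.0 ± 1.0, SD, n = 3). The summit at the start lay 12 bp inside the first exon, at rank 6233, with ranks 5548 and 5131 in replicates 2 and 3. Replicate 1 had its own start summit 98 bp upstream, at rank 6454, too far to count as a match. The stretch before this start, shown above, holds GTGAGAA near its end, at bases 79 to 85. This is the one match to the Su(H) site among all 35 summit windows of the 10 genes.

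Inside kuz, the strongest summit was intronic, at 13572271 and 22.132 kb from the start, with rank 2674 in the IDR list and 2646, 2749 and 2921 in the replicates. The window of 100 bp on either side of it had 16.4% GC, the lowest of the members' windows. A second, 1125 bp before it at 13571146, ranked 5319, and both were nearest to the start of lncRNA:CR44973, a non-coding gene. A last one, at 13615393 and nearest to mir-2489, ranked 7606 in the IDR list and 16019, 6252 and 8874 in the replicates, so only replicate 2 had it among its strongest 8188. The flank of kuz held a summit at 13548394 with rank 2646, which lies inside the neighbouring gene B4 and 623 bp from that gene's start.

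The ubiquitin ligase genes neur and mib1, whose proteins Neuralized and Mindbomb prompt the uptake of the ligands, differed from each other. The neur gene (FBgn0002932) lies at 9020348 to 9039471 on the minus strand of 3R and had 2 IDR summits, both among the strongest of the members. One lay 232 bp upstream of its second start, 5.74 kb into the gene, at rank 997 in the IDR list and 967, 894 and 1309 in the replicates. The other lay 1710 bp downstream of that start, at rank 1117 and at 1132, 1260 and 1066 in the replicates. All 6 replicate ranks were within the upper 1309. The first start of neur had no IDR or pooled summit, and replicates 2 and 3 each had a summit among their strongest 8188 at 639 and 638 bp inside the gene from it. Their full lists also had one at that start, at ranks 9959 and 9007.

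The mib1 gene (FBgn0263601), only 5.261 kb long at 16006552 to 16011812 on 3L, had no IDR summit between its ends or at its starts. Its first start had a pooled summit 111 bp upstream at rank 9440, and replicates had one there at ranks 11345, 7378 and 7938, outside the strongest 8188 in replicate 1 and inside them in replicates 2 and 3. In its flanks lay 4 IDR summits, of which none was kept without replicate 1 and 1 without replicate 2 or 3. Upstream, the one at 16013458, 1646 bp from the start, ranked 5834 in the IDR list and 4984, 9555 and 6069 in the replicates, and the one at 16016038, nearest to lncRNA:CR45998, ranked 6537, 6772 and 13728 in the replicates. Downstream, the summits at 16004995 and 16002242 were nearest to mRpS31 and hzg, at 198 and 2494 bp from their starts. The one near hzg ranked 6415 and 10071 in replicates 1 and 2 and was absent from replicate 3, and only replicate 1 had the one near mRpS31, at rank 6686.

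Finally numb (FBgn0002973) encodes an adaptor that binds Notch and brings it into endosomes, and so keeps the pathway off in 1 daughter of an asymmetric division. It lies at 9437469 to 9464184 on 2L and had a single IDR summit, which was one of the strongest at any of the 10 genes. It lay at 9449584, 246 bp upstream of the second start and 12.361 kb into the gene at that start, with rank 275 in the IDR list and 262, 257 and 314 in replicates 1, 2 and 3. The first start had no IDR summit, and its pooled summit, 5 bp away, ranked 21335. Like N, numb had many low-ranking summits: 14 in the pooled list, of which 1 (7.14%) was an IDR summit.

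**Figure D2:**
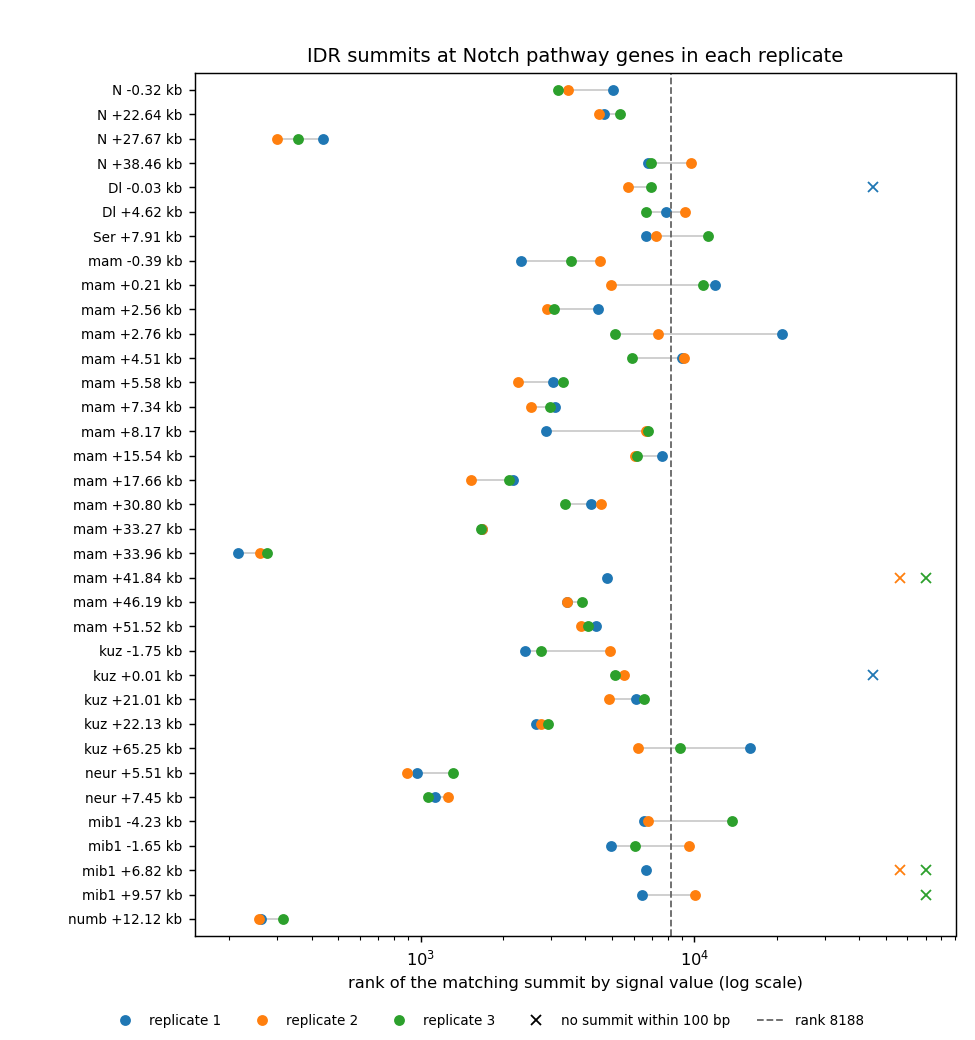
Rank by signal value of the summit matched within 100 bp to each of the 35 IDR summits in or within 5 kb of the Notch pathway genes, in each replicate, on a log x axis, with labels giving the distance from the gene's 5′ end. Crosses, set at the right at no particular rank, mark replicates with no match in their 30000 summits, and the dashed line is rank 8188. The intronic summits of N and mam at 27.67 and 33.96 kb, both of neur and that of numb rank close together in all replicates, while those of Dl, Ser and mib1 sit near the line.

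Put in order of density in the strongest 8188 peaks of each replicate, mam came first with 0.2024 ± 0.0289 summits per kb and neur next with 0.1394 ± 0.0302 (SD, n = 3 each). The replicate values of mam ran from 0.1735 to 0.2314 and those of neur from 0.1046 to 0.1569, so these genes did not overlap. N, at 0.0625 ± 0.0155 per kb, ran from 0.0535 to 0.0803 and lay below every replicate of neur. These values rest on few summits, 2, 3 and 3 in the 19.124 kb of neur and 3, 2 and 2 in the 37.352 kb of N. The mean of mib1 was about the same as that of N, 0.0634 ± 0.1097, but rested on 1 summit in replicate 3 and none in the others. After these came numb at 0.0499 ± 0.0216, kuz at 0.0448 ± 0.0112, Ser at 0.0301 ± 0.026 and Dl at 0.0284 ± 0.0246, whose replicate ranges overlapped one another and, for numb and kuz, that of N, so their order is not resolved. The order of these counts is by number of summits per length and takes no account of their strength.

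**Figure D3:**
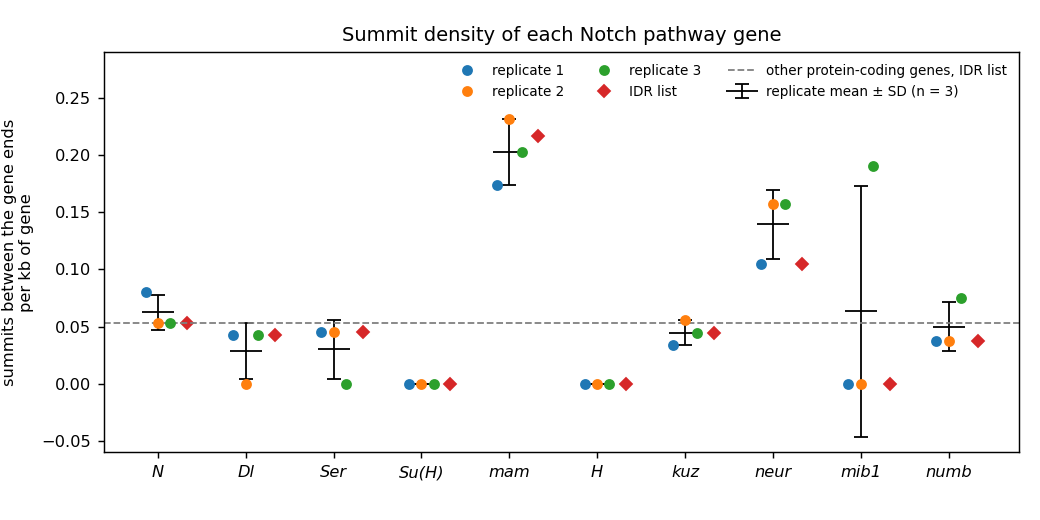
Summits between the gene ends per kb of gene for the 10 Notch pathway genes, with 1 point for each replicate (strongest 8188 peaks), a black bar for the mean ± SD of 3 replicates and a red diamond for the IDR list. The dashed line is the 0.0531 per kb of the other protein-coding genes in the IDR list. All 3 replicates and the IDR value lie well above the line in mam and neur, and only just above it for N in replicates 2 and 3 and the IDR list.

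Against protein-coding genes of at least 10 kb, neur lay at the 76.0th percentile of IDR summits per kb. N, Ser, kuz, Dl and numb lay between the 50.5th and the 56.8th, close to the middle. The median of the 7 members of that length was 0.0451 per kb, and that of other protein-coding genes of that length was 0.036 per kb. The median over all 10 members was 0.0437, and it was 0 over the other protein-coding genes, most of which are shorter. The members' median fell between Dl, with 1 summit and 0.0426 per kb, and kuz, with 4 and 0.0448. That median was 0.0168 without replicate 1, 0.0299 without replicate 2 or 3 and 0.0056 in the upper 4094 IDR peaks.

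**Figure D4:**
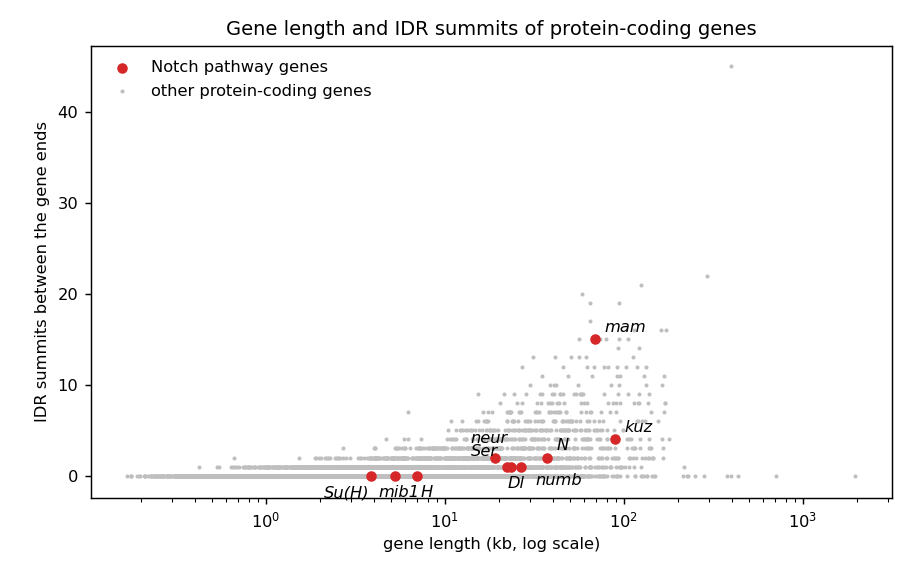
IDR summits between the gene ends against gene length on a log x axis, with 1 point for each protein-coding gene. The members are red and the other genes grey; mam lies at 15 summits and 69.154 kb near the upper edge, kuz has 4 in 89.273 kb, and Su(H), mib1 and H are short genes at 0.

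The 35 summits in or near the 10 genes differed in strength between mam and the rest. Over all 35 the median percentile of signal in the IDR list was 45.1, where 100 is the strongest, and that of the other 8153 was 50. Among the upper 4094 peaks lay 17 of them (48.6%), as did 50% of the others. The 16 mam summits had a median percentile of 56.0 with 62.5% in the upper 4094, and the 19 at the other members 29.9 with 36.8%. These sets differ in make-up, since 15 of the 16 lay between the gene ends but only 11 of the 19. Over the 26 summits between the ends of all members the median percentile was 52.5, with 53.8% in the upper 4094. How far the flank summits set the difference between mam and the rest was not tested. All 3 replicates had a match within 100 bp among their strongest 8188 for 21 of the 35 (60.0%), where 67.3% of all IDR summits had. Without mam that was 9 of 19 (47.4%), and for the summits between the ends of all members it was 18 of 26 (69.2%). In the full lists all 3 replicates had a match for 30 of the 35 (85.7%), and for 89.6% of all IDR summits. Peak widths had a median of 351 bp at the members and 347 bp at other IDR summits, and the windows of 100 bp on either side of a summit had a median GC content of 29.4% at the members and 32.8% elsewhere.

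Of the motifs searched on both strands of these windows, the Su(H) site, GTGAGAA or GTGGGAA, was in 1 of the 35 (2.86%, Wilson 95% interval 0.506 to 14.5) and in 4.35% of all 8188 windows. GAGAG, the core letters bound by GAGA factor, was in 9 of the 35 (25.7%, interval 14.2 to 42.1) and in 19.1% of all windows. In mam it was in 6 of 16 windows. The E-box CACGTG was in 2 of the 35, at kuz and mam, and in 1.34% of all. CAGGTAG, the letters bound by the early embryonic activator Zelda, was in none, and in 0.696% of all. These shares come from few windows, some of them neighbours in 1 gene. The motifs other than the Su(H) site were chosen after the values had been seen, and a match here is no evidence of binding.

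A list of 50 other Notch pathway genes gave 17 with an IDR summit at a start (34%, Wilson 95% interval 22.4 to 47.8), where 22.8% of all protein-coding genes had one. In the replicates' strongest 8188 it gave 17, 18 and 20, a mean of 18.3 ± 1.53 (SD, n = 3). These were 34%, 36% and 40% of the 50, where 22.8%, 25.1% and 26.4% of all protein-coding genes had one. Genes of trafficking and ubiquitination had 7 of 11 in the IDR list, and 6, 4 and 6 in the strongest 8188 of replicates 1, 2 and 3, so other groups had larger shares in replicates 2 and 3. The 7 were lgd, an endosomal sorting gene, at rank 106, AP-2alpha, a subunit of the clathrin adaptor, at 1326, the ligase genes Nedd4, ago and dx at 5241, 5662 and 8187, the kinase gene Nak at 6897 and lqf, the fly epsin, at 8087. Here dx and lqf lay near the end of the list. Of the start summits of these 7, the one at ago was nearer to CG1265.

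Among 4 γ-secretase genes, aph-1 alone had an IDR start summit, at rank 335 and nearest to Snx21, so Psn, nct and pen-2 had none. Of the other proteases Fur1, a furin, had one at rank 286, nearest to Vps33B, and 6 IDR summits between its ends. Of the 4 genes of Notch glycosylation, rumi and O-fut1 had one, at ranks 1244 and 4128. Of 8 nuclear cofactors, gro, the Groucho co-repressor recruited by Hairless and by the E(spl) proteins, had one at rank 352, and nej, the fly CBP acetyltransferase, at rank 2225. Among the targets, 3 of the 7 E(spl) bHLH repressor genes had one, E(spl)m3-HLH at rank 225, E(spl)m7-HLH at 784 and E(spl)mdelta-HLH at 1082. For E(spl)m3-HLH the nearest start was lncRNA:CR43644 and for E(spl)mdelta-HLH it was CG43116. Of the 8 Bearded family genes, E(spl)m2-BFM alone had one, at rank 972, and sim, ct and vg had none, although ct held 5 IDR summits between its ends.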

How the data were processed

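Noc1 ChIP-seq peak lists of 3 replicates, the pooled list and the IDR list were analysed. Text files deposited with the lists record that each replicate list came from that replicate's alignments and a control common to all, and the IDR list from the replicate and pooled lists. The signal value of each peak is the authors' deposited score, of unstated scale, and served only for ranks within a list. Aligner, caller and thresholds: not given in the sources used here. Read depth is unknown, and control reads were not analysed here. A summit was the peak start plus the deposited offset, and the 2 to 7 offsets per list past their interval were set to its last base.

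Gene models were those of Ensembl release 115 and bases those of RefSeq, both on dm6. Starts were windows of 500 bp on either side, flanks 5 kb, and matches between lists lay within 100 bp. An intron was the part of a gene outside the exons of all its transcripts. A gene's percentile of density is the share of genes with a lower one. Intervals on shares are 95% Wilson intervals and cover counting error only. Counting was tested on simulated data. Python 3.11.15, pandas 2.3.3 and scipy 1.17.1 were used.

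The members and lists were chosen with earlier results of these data known. Named were the 10 members, other pathway genes with an IDR summit at a start, and any other gene whose start was nearest to a member's IDR summit. Genes named outside that rule (kirre, pathway genes without such a summit) were chosen after their values were seen. Of the 50 other genes 3 were matched by a synonym.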

Additional observations from a re-analysis of the deposited data

How the results depend on the processing

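The alternatives were other windows, lists and distances, and leaving out each replicate, which kept the IDR summits matched in both others (5984, 6045 and 6130) and so also makes the list stricter. Of 58 such values 36 stayed near the reported one. Near was judged by a ratio limit for counts, by the replicate SD for densities and by the Wilson interval for the Su(H) share. The ratio limit was wide, and 4 members with a start summit counted as near 6. Members with a start summit were between 4 and 7 under these settings. The pooled list gave 100 summits between the members' ends, 93 intronic, 127 with flanks and a median of 0.1996 per kb. It gave 29 other pathway genes with a start summit (58.0%, beside 37.6% of all protein-coding genes). The upper 4094 IDR peaks gave 14, 14, 17, 0.0056 per kb and 11 genes, and no Su(H) site in 17 windows (0.0%). A 250-bp start window gave 10 of the 50 other pathway genes. The share of all protein-coding genes was not counted for that window, for the upper 4094 peaks or for the lists without 1 replicate. The members' median density was 0.0706 per kb of gene with flanks counted, 0.055 per kb of gene and flanks together, and 0.0168 to 0.0299 without 1 replicate. The summits with flanks were 23 to 24 and the share of windows with the Su(H) site 0.0% to 4.17% without 1 replicate. All replicate peaks gave a mean median density of 0.2451 per kb, against 0.0435 for their strongest 8188. The members' median density percentile was 85.9 among all protein-coding genes and 52.8 among those of at least 10 kb. The pooled list, the upper peaks and left-out replicates also change the number of peaks counted. How far that number sets the changes was not tested. Read depth is unknown from these files. No paired analysis was possible because the series has 1 group.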
